A study of Mus musculus with 16 samples.

Results

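The 10 genes described here are known for radial glia, the elongated progenitor cells of the embryonic brain, and for the extracellular matrix of neural tissue: Nes, Vim, Fabp7, Slc1a3, Prom1, Msi1, Ncan, Bcan, Ptprz1 and Tnc. They were given as a list of symbols, matched in the platform annotation, and found as 10 of the 18193 genes on the array, through 27 probe sets. Where a gene had several probe sets, the brightest one over the 16 arrays gave its main value, and all its probe sets are described further down.

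Total RNA of mouse embryo heads was measured on 1-colour Affymetrix arrays in 6 samples of embryonic day 9.5 (E9.5), 4 of E11.5 and 6 of E13.5, and the submitters call the samples of a stage biological replicates. The titles name the head while the series title names the brain, so the extent of other tissue in the samples is not known, and the sources used here give neither strain nor genotype. The Affymetrix one-cycle kit labelled the RNA of E9.5 and E11.5 and the Ambion MessageAmp II kit that of E13.5, so stage and labelling kit cannot be told apart in any comparison with E13.5. All levels below are log2 of the RMA intensity of a probe set, all differences are log2 differences between stage means, and adjusted p-values come from limma with Benjamini-Hochberg adjustment over all 18193 genes, with those under 0.05 called higher or lower.

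In a principal component analysis of all genes, stage separated the arrays on 2 components (65.3% and 21.2% of the variance). Another (3.17%) held E9.5 samples 13 and 15 away from the rest, at scores of 26.0 and 22.5. Added poly-A spike-in controls, over 27 probe sets, had mean levels of 7.55 ± 0.22 (SD, n = 6) at E9.5, 5.38 ± 0.13 (n = 4) at E11.5 and 5.12 ± 0.10 (n = 6) at E13.5, so a control added to the RNA also differed between stages labelled with the same kit. Hybridisation controls, over 18 probe sets, were at 10.47 ± 0.54, 11.44 ± 0.24 and 10.001 ± 0.07, highest at E11.5, the stage at which the brightest sets of Nes, Msi1, Ncan, Bcan and Ptprz1 were highest too. The gap between 3′ and 5′ beta-actin control probe sets, a sign of RNA or labelling length, was 0.82 ± 0.16, 0.56 ± 0.05 and 0.47 ± 0.03 in the same order. The part of these controls in the differences below was not tested. In heads measured as bulk tissue, fewer cells of a type and less RNA per cell cannot be told apart.

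Radial glia line the ventricles of the neural tube, divide there to produce neurons and later glia, and send a fibre to the outer surface along which new neurons migrate. Nestin and vimentin form their intermediate filaments, Fabp7 carries fatty acids, Slc1a3 takes up glutamate, Prom1 sits on apical membrane protrusions and Msi1 binds messenger RNA. Neurocan and brevican are chondroitin sulphate proteoglycans of the lectican family, Ptprz1 is a receptor phosphatase whose ectodomain carries chondroitin sulphate, and tenascin-C is a large matrix glycoprotein found in the brain and in connective tissue.

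The sequences just upstream of 4 members are shown because their brightest probe sets followed distinct courses, described below. By these sets Fabp7 rose at each step, Nes and Ncan were highest at E11.5, and Tnc rose most at the last step. Another Ncan set rose through E13.5, and another Nes set had no called fall after E11.5, as given further down. RefSeq (GRCm38.p6) windows of the 250 bases before a start site were available for 9 of the 10 members, as 11 windows, and 32851 such windows in all served as the background. Capitals mark matches, on either strand, to CCAAT (bound by NF-Y), ACAAT (the core bound by SOX factors), TTGGCA (a nuclear factor I half-site), CAGCTG (an E-box), TATAAA (bound by the TATA-binding protein) and ATGCAAAT (the octamer bound by POU factors). The windows lie at chr10:57784673-57784922 (plus strand) for Fabp7, chr3:87970843-87971092 (plus strand) for Nes, chr8:70120845-70121094 (minus strand) for Ncan and chr4:64047016-64047265 (minus strand) for the upstream of the listed Tnc starts.
Fabp7: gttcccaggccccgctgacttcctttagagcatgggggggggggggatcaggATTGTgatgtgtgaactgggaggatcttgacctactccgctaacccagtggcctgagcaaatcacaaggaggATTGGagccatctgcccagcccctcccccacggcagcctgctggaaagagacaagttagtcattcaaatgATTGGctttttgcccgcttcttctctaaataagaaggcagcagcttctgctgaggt
Nes: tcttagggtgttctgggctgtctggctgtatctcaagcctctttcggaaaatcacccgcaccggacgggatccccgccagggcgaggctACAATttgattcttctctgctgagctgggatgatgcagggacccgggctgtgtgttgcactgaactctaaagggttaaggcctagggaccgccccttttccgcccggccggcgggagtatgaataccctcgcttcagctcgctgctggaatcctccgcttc
Ncan: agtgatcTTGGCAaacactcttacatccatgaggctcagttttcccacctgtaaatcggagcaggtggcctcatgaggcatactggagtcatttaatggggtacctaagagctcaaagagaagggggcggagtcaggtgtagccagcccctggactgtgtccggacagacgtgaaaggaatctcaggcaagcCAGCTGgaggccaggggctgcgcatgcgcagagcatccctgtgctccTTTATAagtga
Tnc: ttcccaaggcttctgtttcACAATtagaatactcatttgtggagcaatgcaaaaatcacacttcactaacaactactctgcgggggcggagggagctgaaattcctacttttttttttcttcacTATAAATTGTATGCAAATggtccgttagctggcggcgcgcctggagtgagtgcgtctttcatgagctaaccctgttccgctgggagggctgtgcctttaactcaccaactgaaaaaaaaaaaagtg
The Tnc window held the octamer at -116 to -109 relative to the start, directly after an ACAAT match on the reverse strand (-121 to -117) that shares a base with a TATAAA match (-126 to -121). The octamer occurred in 1.60% of all windows, and among the members in Tnc alone, whose windows at its listed starts overlap and hold the same copy. CCAAT was present in 33.8% of all windows and in those of Vim, Bcan, Prom1, Fabp7 and Slc1a3, and the Fabp7 window held 2 copies on the reverse strand, at -126 to -122 and -56 to -52. ACAAT was present in 27.7% of all windows and in those of Nes, Tnc, Fabp7 and Slc1a3. In Ncan, TTGGCA (12.3% of all windows) lay at -243 to -238, CAGCTG (13.001%) at -58 to -53 and the reverse of TATAAA (12.4%) at -11 to -6. The annotated span of Ncan reaches into this window, to 70120863, so its TATAAA match lies inside the annotated gene. These matches describe letters only, and binding was not measured.

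Between E9.5 and E11.5 the radial glia and neural matrix genes rose. By their brightest probe sets 9 of 10 were called higher, where 31.0% of all genes were called higher, and 1 was called lower (Prom1), where 26.9% were. For these 9 genes every E11.5 array lay above every E9.5 array (19.9% of all genes), the opposite held for 0 members (17.8% of all genes), and 7 rose at least 2-fold (6.08% of all genes). The median difference of all 10 members was 1.36, against 0.02 over all genes. Between E11.5 and E13.5 the genes parted: 4 rose (Fabp7, Slc1a3, Vim and Tnc; 27.9% of all genes), 5 fell (Nes, Prom1, Msi1, Ncan and Ptprz1; 27.0%) and Bcan was not called, with a median of -0.42 against 7.7e-05 over all genes. Arrays did not overlap for any of the 4 that rose (22.3% of all genes) or the 5 that fell (20.7%). For Vim, Msi1, Ncan and Ptprz1 the direction of this second step depended on the probe set, as given further down. Over the whole span from E9.5 to E13.5, 9 were called higher (32.7% of all genes) and Prom1 lower (29.1%).

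**Figure D1:**
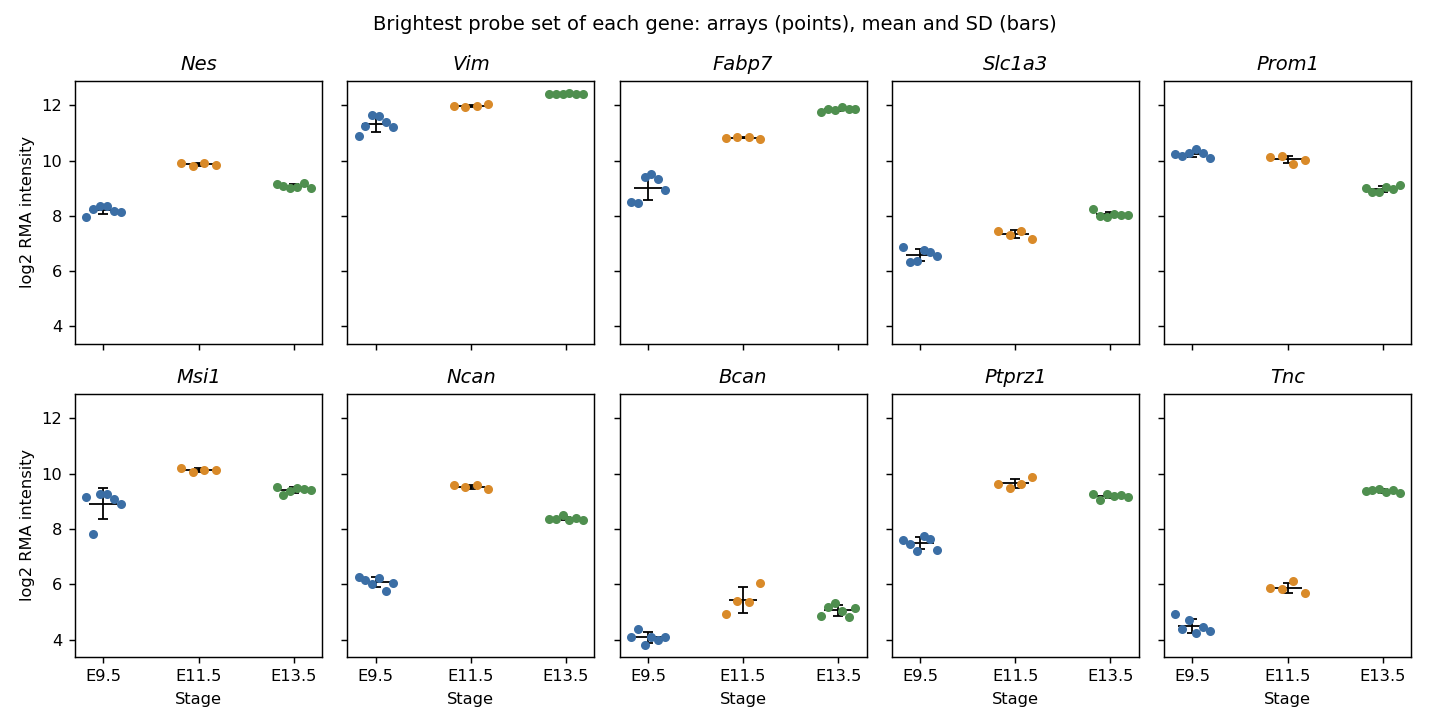
Log2 RMA intensity of the brightest probe set of each gene (vertical axis) by stage (horizontal axis), with each array as a point and bars for the mean and SD (n = 6, 4 and 6). Nes, Msi1, Ncan and Ptprz1 are highest at E11.5, Fabp7, Slc1a3, Vim and Tnc at E13.5, and Prom1 falls from 10.25 to 8.98.

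Nes encodes nestin, the intermediate filament protein by which neural progenitors are commonly recognised. Its levels ran from 7.97 to 8.36 at E9.5 (median 8.23), were 9.90, 9.82, 9.93 and 9.84 in the 4 E11.5 samples, and ran from 9.003 to 9.18 at E13.5 (median 9.07). The 3 stages did not overlap, and E11.5 was highest in every sample. The rise was 1.66 (SE 0.08, adjusted p = 1.9e-12), or 3.16-fold, and the following fall was -0.79 (SE 0.08, adjusted p = 6.2e-08), leaving E13.5 0.87 above E9.5. The slope itself changed between the intervals, by -2.45 (adjusted p = 6.9e-11 by limma).

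Vim encodes vimentin, a filament protein that radial glia share with mesenchyme, endothelium and other non-neural cells. Its brightest probe set read 10.90 to 11.67 at E9.5 (median 11.32), 11.99, 11.95, 11.97 and 12.05 at E11.5, and 12.41 to 12.45 at E13.5 (median 12.42). Each stage lay above the one before without overlap, with the widest spread at E9.5, where sample 13 was lowest. The differences were 0.65 (SE 0.11, adjusted p = 4.5e-05) and 0.43 (SE 0.11, adjusted p = 0.0025), and the change of slope was not called (-0.22, adjusted p = 0.38). With the second-brightest probe set that change was -2.33 (adjusted p = 2.8e-11), and with the mean of all its sets -1.49 (adjusted p = 2.3e-08). Within arrays, the level of Nes relative to Vim rose by 1.01 from E9.5 to E11.5 and fell by 1.22 from E11.5 to E13.5 (adjusted p = 0.0143 for each, 2-sided exact permutation tests, adjusted over 12 tests of member pairs; 0.00952 is the smallest p possible for 4 against 6 arrays). When the mean of all probe sets stood for each gene, the first of these was 0.25 and lost its call (adjusted p = 0.0831), and the second turned into a rise of 0.28.

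Fabp7, the brain fatty acid-binding protein of radial glia, was among the larger rises. Its levels were 8.47 to 9.50 at E9.5 (median 9.14), 10.81, 10.86, 10.87 and 10.80 at E11.5, and 11.78 to 11.93 at E13.5 (median 11.86). No array of one stage reached the next, while E9.5 was spread widely: samples 13 and 15 read 8.50 and 8.47 against 8.95 to 9.50 in the other 4. The first step was 1.81 (SE 0.16, adjusted p = 9e-09), or 1.54 without both samples, and the second 1.02 (SE 0.16, adjusted p = 2e-05). From E9.5 to E13.5 Fabp7 rose 7.12-fold (adjusted p = 6.3e-13). Within E13.5 the B63 samples lay above the B62 samples (means of 11.89 and 11.83), the lone member where these title prefixes did not overlap (exact permutation p = 0.1, the smallest that 3 against 3 allows, adjusted p = 0.667 over 10 tests).

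The slope of Fabp7 fell between the intervals by 0.79 (adjusted p = 0.027), and this call was lost without E11.5 sample 33, 36 or 51 in turn, at adjusted p of 0.051 to 0.062. Without E9.5 samples 13 and 15 it was -0.52 and called.

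Slc1a3, the glutamate transporter GLAST, which astrocytes keep after radial glia are gone, rose at both steps. Its brightest probe set, an _x_at set, whose suffix marks probes that can also match other sequences, read 6.32 to 6.89 at E9.5 (median 6.62). The E11.5 samples read 7.45, 7.31, 7.44 and 7.17, and E13.5 ran from 7.97 to 8.24 (median 8.03). The stages did not overlap, and the differences were 0.75 (SE 0.10, adjusted p = 3.7e-06) and 0.71 (SE 0.10, adjusted p = 7e-06). Fabp7 rose relative to Slc1a3 within arrays, by 1.07 in the first interval (exact permutation, adjusted p = 0.0143) and by 0.31 in the second (adjusted p = 0.0286). The second of these was lost without E11.5 sample 33, 36 or 51 (adjusted p of 0.0519 to 0.0714).

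**Figure D2:**
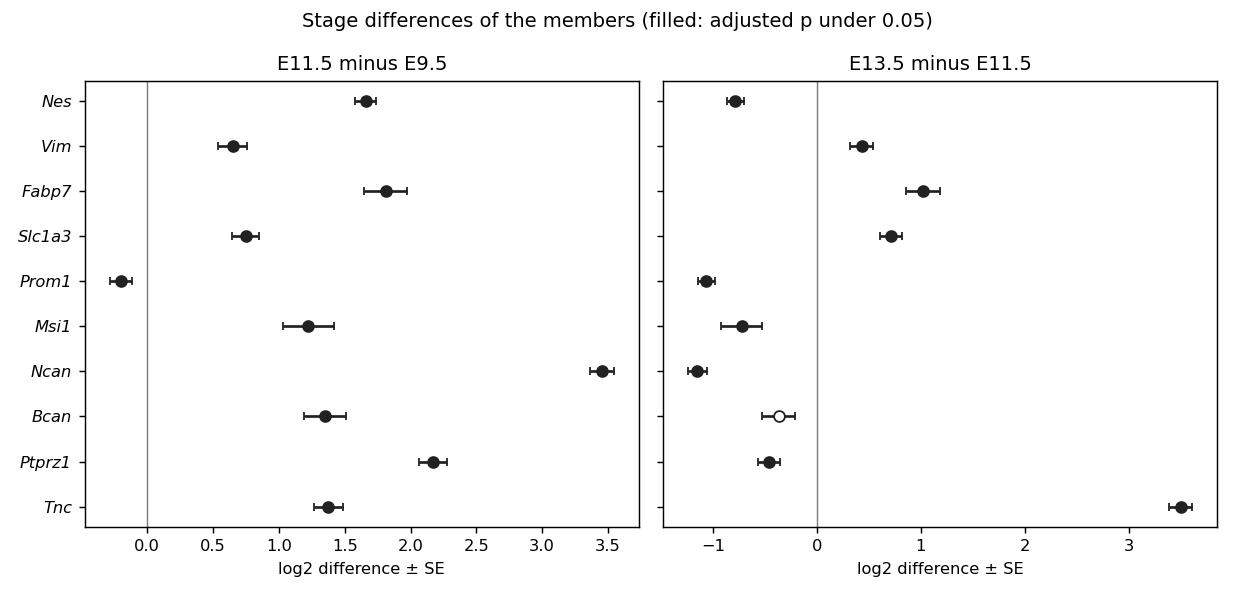
Log2 difference between successive stages (horizontal axis) for the brightest probe set of each member, with bars of 1 SE from limma and filled points for adjusted p under 0.05. Of 10 genes, 9 lie above 0 in the left panel, and in the right panel 4 lie above 0 and 6 below, with Bcan open.

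Prom1, the apical membrane glycoprotein prominin-1, was the exception of the first interval and had 1 probe set. It read 10.08 to 10.43 at E9.5 (median 10.26), 10.12, 10.17, 9.88 and 10.01 at E11.5, and 8.85 to 9.12 at E13.5 (median 8.99). E9.5 and E11.5 overlapped, whereas every E13.5 sample lay below both. The first difference of -0.20 (SE 0.08, adjusted p = 0.048) was near the threshold and was lost in 16 of 26 alternative settings. Among them were the fits that left out any 1 of E9.5 samples 13, 16, 19 and 22, E11.5 samples 51 and 52 and E13.5 samples B62E6K, B62E8K, B63E5K and B63E6K, with adjusted p of 0.054 to 0.17. The second difference was -1.07 (SE 0.08, adjusted p = 1.6e-09), a 2.09-fold fall that kept its call in all 26.

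Msi1 encodes Musashi-1, an RNA-binding protein that represses translation in neural progenitors. Its brightest probe set read 7.81 to 9.27 at E9.5 (median 9.12), 10.21, 10.07, 10.14 and 10.13 at E11.5, and 9.23 to 9.50 at E13.5 (median 9.44). All E11.5 samples were above the other stages, and the lowest E9.5 value was that of sample 15 alone, with the other 5 at 8.90 to 9.27. It rose by 1.22 (SE 0.19, adjusted p = 1.8e-05) and then fell by 0.73 (SE 0.19, adjusted p = 0.0034). The net difference from E9.5 to E13.5, 0.50 (adjusted p = 0.017), lay between overlapping arrays. It was 0.28, and still called, without E9.5 sample 15, and its adjusted p was 0.069 with the title prefix as a random block.

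Ncan, neurocan, rose most of the members in the first interval. Its brightest probe set read 5.75 to 6.27 at E9.5 (median 6.10), 9.58, 9.51, 9.60 and 9.44 at E11.5, and 8.32 to 8.50 at E13.5 (median 8.36). The lowest E11.5 sample was more than 3 log2 units above the highest of E9.5. The difference of 3.46 (SE 0.09, adjusted p = 4.5e-16), 10.97-fold, ranked 20 of 18193 genes from the top. It then fell by 1.15 (SE 0.09, adjusted p = 1.2e-09) to a level still 4.94-fold above E9.5.

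Bcan, brevican, a lectican known chiefly from the postnatal brain, was dim throughout. Its brightest probe set, also of the _x_at kind, read 3.81 to 4.39 at E9.5 (median 4.09), 4.91, 5.39, 5.36 and 6.04 at E11.5, and 4.81 to 5.32 at E13.5 (median 5.09). Over all probe sets and arrays the lower quartile of intensity was 12 and the median 32, and the Bcan means were 16.9, 43.0 and 33.2 in order of stage. The rise was 1.35 (SE 0.16, adjusted p = 4.1e-07), with no overlap, and the later difference of -0.37 (SE 0.16) was not called (adjusted p = 0.055). That difference rested on single arrays: it was -0.16 and not called without E11.5 sample 52, the highest, and -0.54 (adjusted p = 0.0048) without E11.5 sample 33, the lowest. It was also called without E9.5 sample 15 (adjusted p = 0.049) or E13.5 sample B62E8K (adjusted p = 0.037).

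The lecticans changed unequally. Within arrays, Ncan rose relative to Bcan by 2.11 from E9.5 to E11.5 (2-sided exact permutation, adjusted p = 0.0143) and fell relative to it by 0.78 from E11.5 to E13.5 (adjusted p = 0.0286). The latter was lost without E11.5 sample 33, 36 or 51 (adjusted p = 0.0714 for each) and when all probe sets of each gene were averaged (-0.23, adjusted p = 0.305). The size of the former is uncertain, as Bcan was dim at E9.5 (mean intensity 16.9).

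Ptprz1, the receptor-type phosphatase zeta, binds tenascins and pleiotrophin at the surface of radial glia. It read 7.22 to 7.75 at E9.5 (median 7.53), 9.63, 9.50, 9.62 and 9.89 at E11.5, and 9.05 to 9.28 at E13.5 (median 9.21). The stages did not overlap, and E11.5 was highest. It rose 4.51-fold, by 2.17 (SE 0.11, adjusted p = 2.1e-12), and fell by 0.46 (SE 0.11, adjusted p = 0.00098).

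Tnc, tenascin-C, a ligand of Ptprz1, was the member with its main rise in the second interval. It read 4.25 to 4.91 at E9.5 (median 4.43), 5.86, 5.83, 6.13 and 5.70 at E11.5, and 9.30 to 9.45 at E13.5 (median 9.39). Each stage lay above the last, and the 6 E13.5 arrays were within a narrow band. The first difference was 1.38 (SE 0.11, adjusted p = 2.4e-09) and the second 3.50 (SE 0.11, adjusted p = 2.4e-15), 11.3-fold, rank 34 of 18193 from the top. At E9.5 its probe set was dim, with intensities of 19 to 30 on arrays whose median was 32, and whether this was above background was not tested, so the size of a fold against E9.5 is uncertain and the log2 difference from E9.5 to E13.5 was 4.87 as measured.

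The change of slope between the intervals, tested for all members in the same model, was called lower for 7 of 10 (27.0% of all genes) and higher for Tnc alone, at 2.12 (adjusted p = 3.4e-08; 26.3% of all genes). Slc1a3 and Vim were not called by their brightest sets, but Slc1a3 was called lower with its second-brightest (-0.70, adjusted p = 0.018), and Vim with its second-brightest or with the mean of all its sets. Relative to Tnc, Ptprz1 rose by 0.80 within arrays in the first interval (exact permutation, adjusted p = 0.0229) and fell by 3.96 in the second (adjusted p = 0.0143). The first of these was lost without E11.5 sample 33 or 36 (adjusted p = 0.0571 and 0.0519) and without E9.5 samples 13 and 15 together (adjusted p = 0.0623). As the Tnc set was dim at E9.5, the size and direction of that first change are also uncertain. By their brightest sets the receptor and its ligand thus changed unequally in the second interval. Another Ptprz1 set, 1427019_at, rose in both intervals (1.23 and 0.49), as Tnc did.

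The 8 members with several probe sets did not all give one course. Over the 27 probe sets, tested among all 34945 that name 1 gene, 21 were called higher and 1 lower from E9.5 to E11.5 (27.2% and 28.0% of those probe sets), and 12 higher and 8 lower from E11.5 to E13.5 (25.9% and 28.4%). From E9.5 to E13.5 it was 23 higher and 1 lower (28.7% and 32.5%). In the first interval 1 of these 8 members (Msi1) had called probe sets in opposite directions, where 19.8% of 9010 genes with several did. In the second interval 4 did (Vim, Msi1, Ncan and Ptprz1), where 20.4% of the 9010 genes did. Over the whole span 0 of the 8 members and 18.3% of the genes did.

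For Vim, the brightest set rose in the second interval while 1438118_x_at fell by 1.19, from 12.39 ± 0.06 (n = 4) to 11.20 ± 0.09 (SD, n = 6), and 1456292_a_at fell by 0.89, from 12.001 to 11.11. Both of these had risen before, by 1.15 and 1.04. By them Vim peaked at E11.5 as Nes did, and at E13.5 they were not called different from E9.5 (-0.04 and 0.14). The within-array difference between the brightest set and 1438118_x_at grew by 1.62 from E11.5 to E13.5 without overlap (exact permutation, adjusted p = 0.0127 over 8 such tests). The tests were run only for the 4 members whose sets were called in opposite directions in the second interval. Where sets were so called, the p-values here and below follow largely from that choice and lend no separate support.

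For Msi1, 1444306_at ran opposite to the brightest set at each step. It fell by 1.15, from 6.66 ± 0.34 to 5.51 ± 0.04, and then rose by 2.03 to 7.54 ± 0.15, whereas the dimmer 1421409_at rose by 1.29 and fell by 1.13 with the brightest. The difference between the brightest set and 1444306_at changed by 2.37 and -2.76 (exact permutation, adjusted p = 0.0127 for each).

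For Ncan, 1434679_at rose in both intervals, from 4.62 ± 0.38 through 8.85 ± 0.34 to 9.48 ± 0.08, steps of 4.23 and 0.64 (the second at adjusted p = 0.0024 by limma over all probe sets). All E9.5 arrays were at or below 4.95 and all E11.5 arrays at or above 8.41. The rise of Ncan from E9.5 was thus found by both bright sets, and its fall after E11.5 by the brightest set alone. The dim set 1423604_at rose by 0.75 and was then not called (-0.13).

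For Ptprz1, 1427019_at likewise rose in both intervals, from 6.97 ± 0.18 through 8.20 ± 0.06 to 8.69 ± 0.12, the second step being 0.49 (adjusted p = 0.0002 by limma). The dim set 1418690_at rose by 1.13 and then differed by -0.30 without a call (adjusted p = 0.052). The difference between the 2 bright sets changed by -1.79 for Ncan and -0.95 for Ptprz1 in the second interval (exact permutation, adjusted p = 0.0127 for each).

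**Figure D3:**
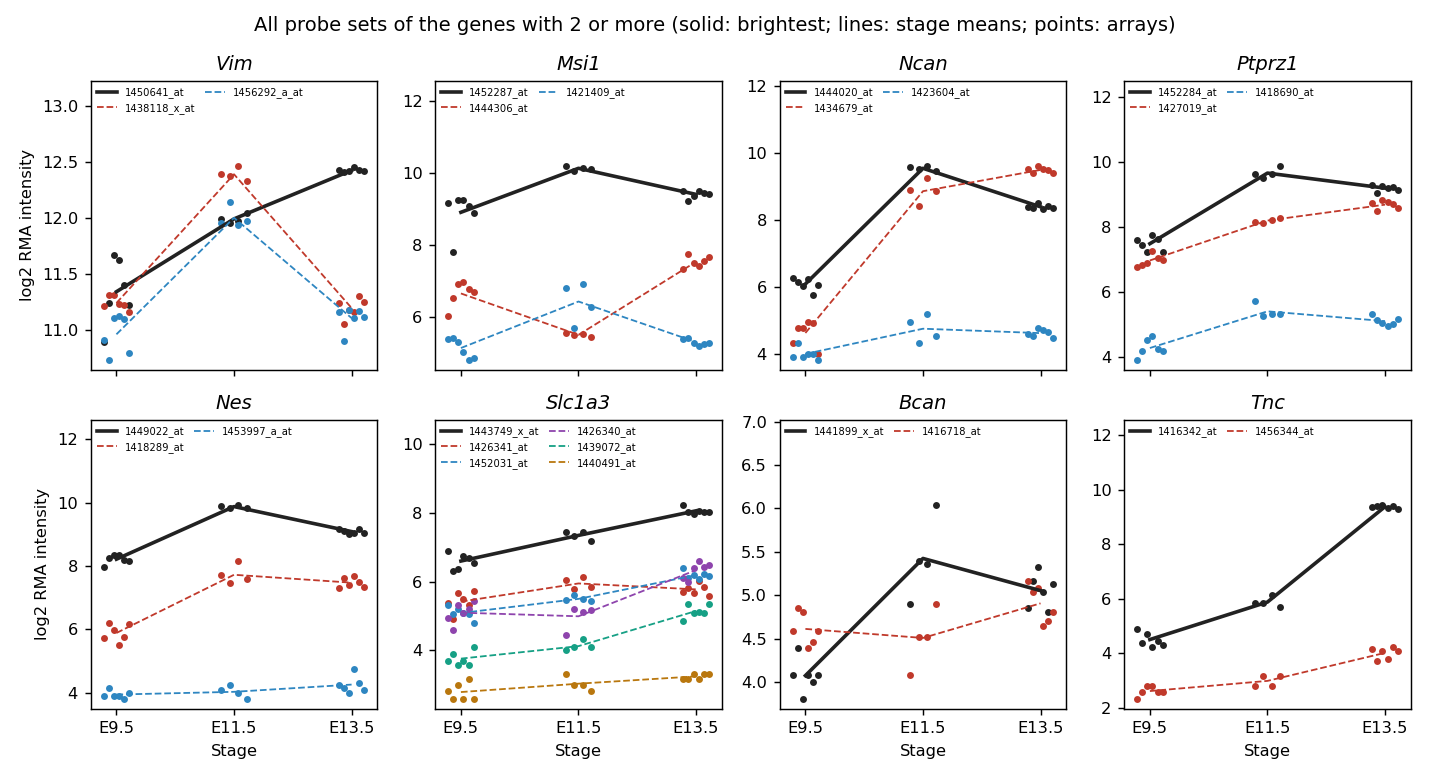
Log2 RMA intensity (vertical axis) by stage (horizontal axis) of every probe set of the 8 genes with several, with the brightest as a solid line through stage means, the others dashed, and arrays as points. Lines cross or part after E11.5 for Vim, Msi1, Ncan and Ptprz1, with 1444306_at of Msi1 lowest at E11.5 (5.51) and highest at E13.5 (7.54).

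The remaining members with several probe sets had none called in opposite directions within an interval. Of the 6 Slc1a3 sets, 4 were called higher from E9.5 to E11.5 and 4 from E11.5 to E13.5, and none was called lower. 1426340_at was not called at first (-0.11, adjusted p = 0.62) and then rose by 1.34, while 1426341_at rose by 0.53 and was then not called (-0.17). For Nes, 1418289_at rose by 1.83 and was then not called (-0.25, adjusted p = 0.14), and 1453997_a_at, between 3.81 and 4.75 on all arrays, was called in neither interval. For Bcan, 1416718_at was not called in the first interval (-0.10) and was called higher in the second (0.40, adjusted p = 0.021), the reverse of its brightest set's order. For Tnc, the dim 1456344_at rose by 0.37 and 1.03, in the same directions as the brightest. Fabp7 and Prom1 had 1 probe set each.

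Genes related to the members by role are given from lists chosen with results of these data known, and each was read from its brightest probe set. For every list below, the shares of all genes to set beside its counts are the same. They were 31.0% called higher and 26.9% lower in the first interval, and 27.9% and 27.0% in the second. Counts near these shares do not set a list apart. Of 26 other radial glia and progenitor genes, 15 were called higher and 2 lower from E9.5 to E11.5 (median 0.39), and 5 higher and 17 lower from E11.5 to E13.5 (median -0.53). Id4, an inhibitor of basic helix-loop-helix factors, rose by 3.01 and then fell by 0.77. Hes5, a Notch target that keeps cells in the progenitor state, rose by 1.64 and fell by 2.21, and Pou3f2, a POU factor, rose by 1.32 and fell by 1.37, the order of Nes. Zbtb20 rose at both steps, by 1.88 and 1.35, as Fabp7 did. Sox1 rose by 0.62 and fell by 1.79. The 2 called lower at first, named after their values were seen, were Hes1 and Pax6. Hes1 (-0.70, then 0.90) ran opposite to Hes5 at both steps, and Pax6 fell at both (-0.27 and -0.52).

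The apical membrane and junction genes of the neuroepithelium, partners of Prom1 by place, were called higher in 5 and lower in 2 of 14 at first (median 0.07) and higher in 1 and lower in 8 later (median -0.45). Pard6b, a polarity protein, fell at both steps, by 0.99 and 1.12, and Ctnna2, a neuronal catenin, rose at both, by 0.88 and 1.18. Of 9 other RNA-binding genes of progenitors, set beside Msi1, 3 rose and 2 fell at first, and all 9 fell from E11.5 to E13.5 (median -0.83). Lin28a, which blocks let-7 maturation, fell by 5.44 and 2.24, and Igf2bp1 rose by 0.59 and then fell by 2.20. Lin28b was dim, at 2.90 at E11.5 and 2.54 at E13.5. Msi2 of this list and Cdh2 of the apical list are also among the other radial glia and progenitor genes.

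Intermediate neuronal progenitor genes, 9 measured, were called higher in 8 and lower in 0 at first (median 1.40), led by Eomes (2.75), Neurog2 (2.24) and Insm1 (2.16). In the second interval 2 rose and 4 fell (median -0.22), and Neurog1 fell by 2.07. All 15 neuronal genes rose from E9.5 to E11.5 (median 2.34), Dcx by 4.66 and Stmn2 by 3.21, and 12 rose from E11.5 to E13.5 (median 1.24). Of 11 other intermediate filament genes 6 rose and 2 fell at first, where the neurofilament genes Nefl (2.78), Nefm (2.50) and Ina (2.44) led, and 6 rose and 0 fell later. Nefl and Nefm are also on the neuronal list, and Des is also on the skeletal muscle list.

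Other neural matrix genes and partners of the members, 25 measured, were called higher in 12 and lower in 4 at first (median 0.26) and higher in 17 and lower in 3 later (median 0.51). Gpc2, a neural glypican, rose by 1.55 and 0.87, Ptprs, a receptor for chondroitin sulphate, by 1.19 and 0.75, and Reln, the secreted positional cue of early neurons, by 1.18 and 1.12. Hapln1, which links lecticans to hyaluronan, fell by 1.94 at first, and Has2, a hyaluronan synthase, fell by 1.30 later, as did Itgb8, an integrin of radial glia, by 2.28. The remaining lecticans and the ligands of Ptprz1 were picked out for their role after their values were seen. Vcan rose by 0.47 and 0.81, Acan was not called at first (-0.10) and then rose by 2.55, Ptn rose by 0.26 and 0.52, and Mdk fell by 0.48 and was then not called (0.03). Acan and Hapln1 are on the cartilage list as well.

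Astroglial and gliogenic genes, 17 measured, were called higher in 8 and lower in 4 at first (median 0.06) and higher in 10 and lower in 3 later (median 1.03). Nfia and Nfib, nuclear factor I proteins that act in the switch to glia, rose at both steps, Nfia by 3.23 and 1.94 and Nfib by 2.75 and 3.48. Aldoc, the brain aldolase, fell by 0.54 and then rose by 4.65, and Slc1a2, the glutamate transporter paired with Slc1a3 in astrocytes, rose by 1.25 and 1.48. Gfap, the defining astrocyte filament, was called in neither interval (-0.25 and 0.05), named after its value was seen. It is also on the intermediate filament list, and Fgfr3 is also among the other radial glia genes.

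**Figure D4:**
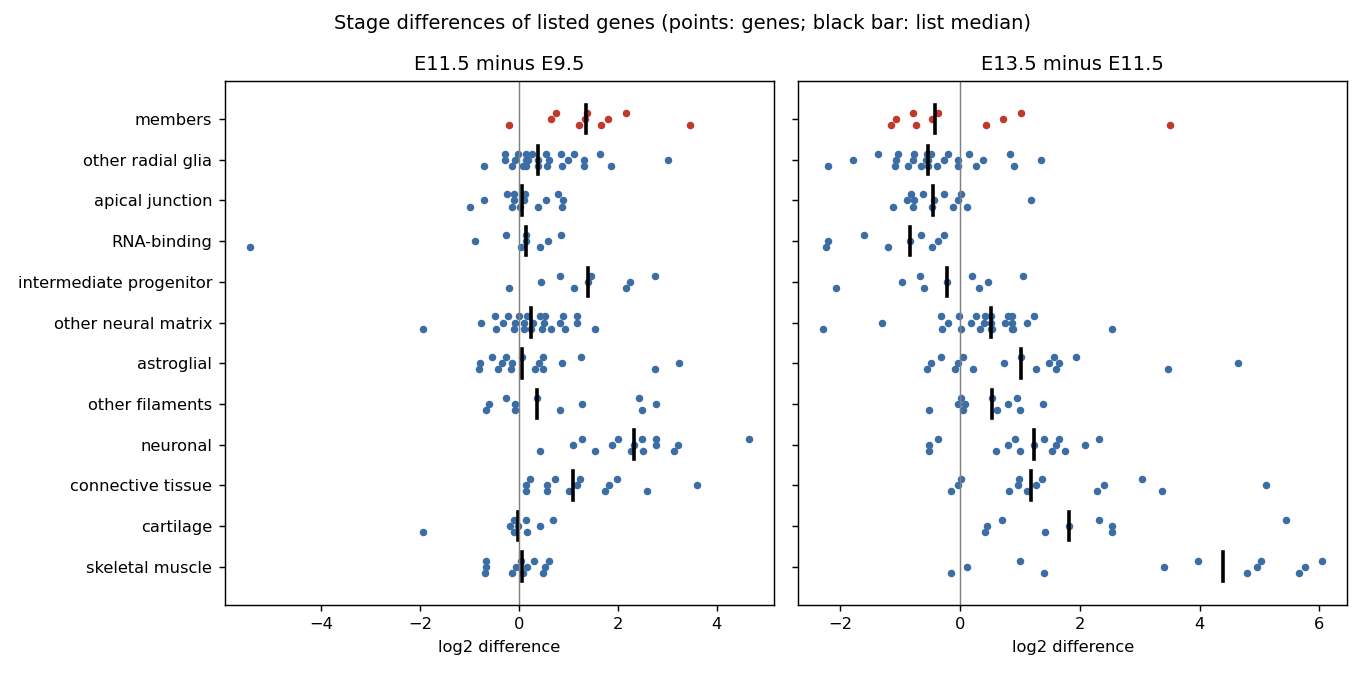
Log2 differences (horizontal axes) of single genes as points, by list (vertical axis), with a black bar at each list's median, for E11.5 minus E9.5 (left) and E13.5 minus E11.5 (right). The members' median moves from 1.36 to -0.42, while the skeletal muscle list moves from 0.06 to 4.39.

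Cells outside the neural tube also express Vim and Tnc, and their markers moved over the same stages. Of 14 connective tissue and facial mesenchyme genes 12 rose and 0 fell at first (median 1.10), and 11 rose and 0 fell later (median 1.19). Their summed intensity ran from 5992 to 7183 at E9.5, 12084 to 12754 at E11.5 and 30883 to 33969 at E13.5. Dcn, a connective tissue proteoglycan, rose by 5.11 and Postn, a matrix protein bound by Tnc, by 3.05 in the second interval, when Tnc rose by 3.50. All 9 cartilage genes rose in that interval (median 1.81), as did 10 of 12 skeletal muscle genes (median 4.39), among them Tnnc1 (6.05) and Myl1 (5.76). Endothelial genes rose in 6 of 10 and fell in 2 in the second interval. In the first interval, 2 endothelial genes rose and 4 fell. Cartilage genes then rose in 2 and fell in 1, and skeletal muscle genes rose in 3 and fell in 3. The part of these tissues in the rises of Vim and Tnc, and in the falls of Nes, Prom1, Msi1, Ncan and Ptprz1 relative to all RNA, was not tested.

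Surface ectoderm genes rose in 1 and fell in 5 of 11 at first and rose in 8 and fell in 2 later, and Krt18 fell by 2.46 at first while Krt15 later rose by 4.01. Lens and pigment cell genes rose in 6 and fell in 3 of 11 at first and rose in 6 and fell in 0 later, and Cryba1 rose by 4.67 in the second interval. Neural crest and Schwann precursor genes, which share Fabp7 with radial glia, rose in 3 and fell in 2 of 7 at first and rose in 2 and fell in 3 later, and Ednrb rose by 1.69 and then fell by 0.68. Their summed intensity was 621 to 757 at E9.5, 1026 to 1367 at E11.5 and 902 to 970 at E13.5. Ednrb, the brightest of the 7 at E11.5 (mean 9.39, from 7.70 at E9.5), weighs most in these sums. In the first interval Sox10 was not called (0.26), Erbb3 (-0.87) and Foxd3 (-0.45) fell, and Ngfr (0.51) and Gfra3 (0.43) rose. Choroid plexus genes rose in 3 and fell in 3 of 7, then rose in 4 and fell in 2, and Ttr rose by 4.22 and 2.40. Of 10 macrophage genes 8 rose and 0 fell at first, and 7 rose and 1 fell later (Laptm5, -3.56). Of 6 red cell genes 3 rose and 1 fell at first, and 0 rose and 5 fell later, when Hbb-bh1 fell by 4.35.

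The genes most like each member over the 16 arrays were found by Pearson correlation of log2 levels, a description in which the stages form separate clusters. For Fabp7 they were Oxct1, a ketone body enzyme (r = 0.998), Stmn2, a neuronal stathmin (0.997), and Cacng4 (0.995). For Tnc they were Ppp1r3b (0.996), Postn (0.996) and Pcdh9 (0.995). Postn went from 6.60 through 7.62 to 10.66 in stage means, rising at both steps as Tnc did. This shared course follows from choosing Postn for its likeness to Tnc.

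For Nes they were Atp5mpl (r = 0.991), Sox4, a SOX factor of early neurons (0.990), and Plagl1 (0.984), and for Ncan Tuba1a, a neuronal tubulin (0.990), Efhd2 (0.990) and Myt1, a zinc finger factor (0.987). Ptprz1 was most like Pak3 (0.989), Ugdh, which makes the sugar precursor of chondroitin sulphate (0.987), and Foxp2 (0.987). All 9 of these genes had their highest stage mean at E11.5, which follows from choosing them for likeness to brightest sets that were highest then. Vim was most like Antxr1 (0.990), Daam1 (0.987) and Atp5l (0.986), Slc1a3 like Trps1 (0.991), Slc8a1 (0.985) and Senp7 (0.985), and Prom1 like Suclg2 (0.992), Igdcc3 (0.989) and Jpt2 (0.988). For Msi1 and Bcan likeness was weaker: Wasf2 (0.938), Maneal (0.937) and Ist1 (0.927) for Msi1, and Gprin1 (0.948), Ppp1r3f (0.942) and Serpinb9 (0.937) for Bcan.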

How the data were processed

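Biotin-labelled total RNA of 16 mouse embryo heads gave 1 linear intensity per probe set and array, which the authors computed by RMA (version and settings not given in the sources used here) according to the submitters' processing notes and deposited. RMA corrects background, normalizes arrays to one another and summarises probes, so values are relative to all RNA on an array. The number of arrays, 16, limits the precision, and an array has no read depth. The log2 of each deposited intensity was taken. Of 45101 probe sets, 64 were controls, 34945 named exactly 1 gene, 932 that named several were left out, and the platform annotation used here names no gene for 9160. RefSeq (GRCm38.p6) changed 0 symbols, and 204 probe sets were not matched. The brightest probe set stood for each of 18193 genes. 0 columns of sample values were left unused.

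Stages were compared by lmFit, contrasts.fit and eBayes of limma 3.58.1 (R 4.3.3), all 16 arrays in 1 model with 13 residual degrees of freedom, Benjamini-Hochberg adjustment over genes and calls at 0.05. A second fit used all 34945 probe sets. The fit was tested on simulated data. Pairs of members were compared by their within-array log2 difference with 2-sided exact permutation tests in scipy 1.17.1. Of 233 listed genes 224 were measured. The text names all members, all their probe sets, up to 4 called genes per list with the largest difference in the first interval and up to 3 in the second (only a part of those so chosen is printed), and the 3 genes most correlated with each member. The members, lists, motifs and rules were chosen with earlier results of these data known. Tests of differences between probe sets, and the counts of genes whose probe sets disagree, were added after the data were seen. Those tests took only the members whose probe sets were called in opposite directions in the second interval. Alternatives were quantile normalization, median centring, other choices of probe set, a filter on the dimmest 25% of genes, only the stages compared, a trended robust variance, array weights, a title-prefix block, and leaving out arrays.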

Additional observations from a re-analysis of the deposited data

Results flagged for a closer look

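Among the 30 groups of arrays tested, 10 members at 3 stages, 2 held a sample whose gap to its nearest neighbour passed Dixon's 95% critical value, and chance alone gives about 1 in 20 such groups. Msi1 in E9.5 sample 15 was at 7.81 in log2 intensity, against 8.90 to 9.27 in the other E9.5 samples, and this sample was also one of the pair that stood apart on the third principal component. Slc1a3 in E13.5 sample B62E6K was at 8.24, against 7.97 to 8.07 in the others.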

How the results depend on the processing

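Over 26 alternatives, 744 of 780 member differences between stages kept their direction and side of the threshold, 21 lost the call, 4 gained one and 11 reversed; for the pairs 202 of 216 kept both, 12 lost the call and 2 reversed. The count of members called lower from E9.5 to E11.5 went from 1 (Prom1) to 0 under quantile normalization, with only the 2 stages compared, with array weights, with the title-prefix block and without E9.5 samples 13 and 15, and was 0 to 1 when single arrays were left out. The count called lower from E11.5 to E13.5 went from 5 to 3 with the mean of all probe sets and to 2 with the second-brightest, and the count with a higher slope in the second interval from 1 to 2 with the second-brightest. With the second-brightest probe set Msi1 (-1.15) and Bcan (-0.10) reversed from E9.5 to E11.5, Slc1a3 (-0.17), Vim (-1.19), Msi1 (2.03), Ncan (0.64), Bcan (0.40) and Ptprz1 (0.49) from E11.5 to E13.5, Vim (-0.0446) from E9.5 to E13.5, and the change of slope of Msi1 (3.18) and Bcan (0.50). With the mean of all probe sets Vim (-0.55) and Msi1 (0.0601) reversed from E11.5 to E13.5, as did Nes minus Vim (0.28, and 0.53 from E9.5 to E13.5). These reversals follow from probe sets of 1 gene that differ, whose cause was not tested. With their own probe sets, no member difference between stages reversed. No paired analysis was possible because the stages share no sample numbers. The dim Bcan sets lie near the lower range of the arrays.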
